A study of Drosophila melanogaster with 12 samples.

Results

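The core of the Notch pathway, a set of 10 genes, was followed across wing imaginal discs with activated Notch, with loss of the polarity gene scribble, and with both. The genes are the receptor gene N, the ligand genes Dl (Delta) and Ser (Serrate), the glycosyltransferase gene fng (fringe), the processing genes kuz (kuzbanian) and Psn (Presenilin), the nuclear genes Su(H), H (Hairless) and mam (mastermind), and the ligand endocytosis gene neur (neuralized). They were taken by symbol from the deposited table of read counts, so the rule itself used no measured value, and all 10 of 10 were found among its 17716 symbols. All 10 passed the filter on low counts in a test of 9444 genes.

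Notch is a transmembrane receptor that is cut when a Delta or Serrate ligand on a neighbouring cell pulls on it. Kuzbanian makes the cut outside the membrane and the Presenilin protease complex the cut within it, which frees the intracellular part to enter the nucleus and turn Suppressor of Hairless from a repressor into an activator. In the wing disc, the larval epithelial sac that forms wing and thorax, this signal acts between dorsal and ventral cells along the future wing margin, where Fringe in dorsal cells sets which ligand the receptor answers to.

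Each of the 12 libraries held polyadenylated RNA of a pool of 60 wing discs of Drosophila melanogaster larvae (3rd instar), taken 6 days after egg laying, with 3 libraries in each of 4 groups. NS larvae carried abxUbx-Flp on a y-, w- chromosome over w-, the pair Act>y+>Gal4 and UAS eGFP over UAS Nicd, and FRT82B tubGal80 over an FRT82B chromosome with scrib1. N larvae had the same genotype but for scrib1, which their FRT82B chromosome lacked. S larvae were w- and carried FRT82B scrib1 over the deficiency Df(3R)BSC752, with no Flp, Gal4, Gal80 or Nicd. WT larvae had the first 2 chromosomes of N larvae with + in place of UAS Nicd and the same FRT82B tubGal80 over FRT82B, so Flp, the Gal4 cassette, UAS eGFP and tubGal80 were common to NS, N and WT and missing from S. The condition of all 3 WT libraries reads wild type, although in WT replicates 2 and 3 the genotype text names UAS Nicd too. UAS Nicd encodes the free intracellular part of Notch, and it is made only in cells in which Flp has opened the Gal4 cassette and which have lost the Gal80 repressor by recombination. NS and N discs were therefore mosaics, and scrib1 was homozygous in only part of NS cells, whereas S discs were mutant throughout. In such bulk tissue, fewer cells of a type and less RNA per cell cannot be told apart. Reads of the transgene count to the N gene, so the N row of NS and N libraries sums the transgene and the gene itself.

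Library totals were 21024017 to 42407447 counts, lowest in NS replicate 2. Levels are given in CPM, counts scaled by library size with TMM factors, and group means are given ± SD (n = 3). Differences are log2 fold changes ± SE from edgeR's quasi-likelihood test, fitted to all tested genes with a call at adjusted p under 0.05 (Benjamini-Hochberg). Nothing states that the pools came from separate crosses, so p-values reflect only how far these pools differ. NS replicate 3 stood apart from the other NS libraries, and its long genes as a class were low. Why it stood apart was not tested. Across 9411 genes, Spearman's rho between exon length and the log2 departure of NS replicate 3 from its group was −0.719, and for S replicate 3 it was −0.431. Results are therefore also given without NS replicate 3 and after a correction of every library for its trend with exon length. Transcripts of scrib stood at 394, 434 and 87.2 CPM in NS, 511, 444 and 443 in N, 208, 201 and 129 in S, and 348, 448 and 369.8 in WT. After the length correction scrib stood at 173 to 205 CPM in S, 331 to 367 in NS and 322 to 326 in WT, so a lower scrib transcript was visible in S and not in NS, where the mutation rests on the genotype text. The 8 markers of disc epithelium (nub, vg, ap, en, ci, sd, dpp and hh) summed to 867 to 2552 CPM in NS, 2699 to 2920 in N, 1383 to 1768 in S and 1825 to 2063 in WT, with none at 0 in any library. The 6 fat body markers, genes of a larval organ outside the disc, summed to 1141 to 6792 CPM in NS, 345 to 2944 in N, 1153 to 12548 in S and 294 to 901 in WT. The 5 markers of adult muscle precursors, which lie under the disc epithelium, summed to 87.6 to 132 CPM in NS, 127 to 139 in N, 155 to 193 in S and 183 to 216 in WT. The 5 tracheal markers summed to 959 to 1785 CPM in NS, 703 to 831 in N, 1296 to 1710 in S and 839 to 1062 in WT, and the 6 haemocyte markers to 44.5 to 81.8 CPM in NS, 29.0 to 39.6 in N, 76.6 to 349 in S and 32.2 to 61.8 in WT. The 5 neuronal markers summed to 14.1 to 46.5 CPM in NS, with brp at 0 in NS replicate 2, to 49.1 to 54.2 in N, to 179 in S replicate 1 and 26.5 and 22.5 in S replicates 2 and 3, and to 39.9 to 51.4 in WT. No other marker of these 3 lists was at 0. The part of these other tissues in the results below was not tested.

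The genes lie on 5 chromosome arms in the Ensembl annotation of BDGP6 (dm6 coordinates). N lies on X from 3134870 to 3172221, fng on 3L from 20925891 to 20949512 and Psn on 3L from 20432468 to 20435156. Su(H) lies on 2L from 15039488 to 15043334, kuz on 2L from 13550139 to 13639411 and mam on 2R from 13991203 to 14060356. On 3R, neur lies from 9020348 to 9039471, Dl from 19302731 to 19326217, H from 20621938 to 20628915 and Ser from 27172090 to 27194267. Ser thus starts 568 kb beyond the end of scrib on the arm that carries scrib1 and the deficiency in S. The extent of the deficiency is not given in the sources used here, and its part in the Ser level of S was not tested. Their exons add up to 1959 bases for fng, the shortest, and 10150 bases for N, the longest. Exons of N, Dl, Ser, Su(H), H and mam share no base with another gene. Those of neur overlap the antisense RNA gene CR31429 over 38.8% of their bases, but CR31429 itself had at most 0.889 CPM in any library.

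Per kb of exon, the 10 genes spanned a wide range of levels, and their order differed between groups. The fng, N, Ser and Psn transcripts were the most abundant in WT, at 180.0 ± 1.52, 73.7 ± 12.01, 72.2 ± 8.52 and 70.8 ± 3.62 CPM per kb (SD, n = 3), of which the last 3 did not differ beyond their spread. They were followed in WT by Dl at 25.9 ± 3.38 and by kuz, H and mam, which overlapped at 18.5 ± 1.40, 18.4 ± 1.27 and 16.4 ± 2.13. The lowest in WT were neur and Su(H) at 8.51 ± 1.62 and 7.36 ± 1.23 CPM per kb, against a median of 12.9 over the 9411 tested genes with a length. In N discs the N transcript came first at 206 ± 12.5 CPM per kb, ahead of Ser at 136 ± 10.1 and fng at 128 ± 4.32, which overlapped, and Dl at 60.0 ± 8.38 reached the level of Psn at 61.1 ± 2.88. In S discs fng led at 158 ± 34.6 CPM per kb, and N at 50.8 ± 19.7 ranked behind Ser at 64.0 ± 1.60 and Psn at 56.2 ± 3.64 but overlapped with both, whereas Ser and Psn did not overlap. In NS discs N, fng and Ser stood at 117 ± 59.0, 105 ± 18.9 and 91.3 ± 50.3 CPM per kb and could not be ordered beyond their spread. The N values of NS and N discs include reads of the shorter transgene but are divided by the exon length of the whole gene. The rank of N in these 2 groups is therefore not that of the gene alone.

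**Figure D1:**
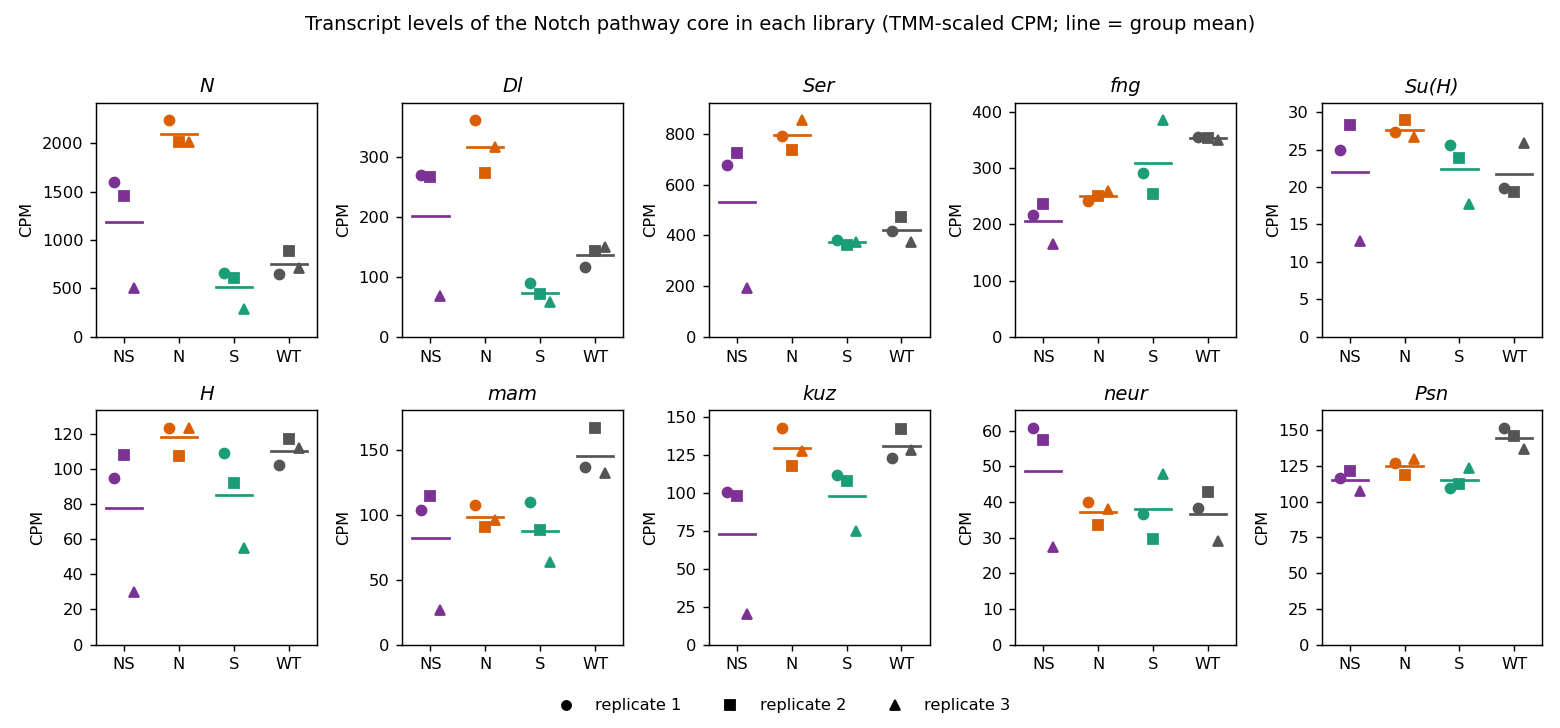
Level of each member in each library in TMM-scaled CPM, by group, with a symbol per replicate and a line at the group mean. N, Dl and Ser are highest in N libraries, and NS replicate 3 is the lowest NS library in all 10 panels.

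The receptor transcript, which includes reads of the transgene, was highest in N discs. N stood at 1602, 1458 and 501 CPM in NS, 2236, 2016 and 2016 in N, 656, 604 and 287 in S, and 652, 885 and 707 in WT. All N libraries lay above all WT libraries, NS replicates 1 and 2 lay between these groups, and NS replicate 3 and S replicates 2 and 3 were below every WT library. WT replicates 2 and 3 stood with WT replicate 1 and well below N, although their genotype text lists the transgene. Between N and WT discs the N transcript differed by 1.48 ± 0.408, a 2.79-fold difference that did not pass over all 12 libraries (edgeR adjusted p = 0.0903). With the length correction it passed (1.43 ± 0.134, adjusted p = 0.000178), as it did without NS replicate 3 (1.49 ± 0.255, adjusted p = 0.00789), so the value itself moved little and its error shrank. Between NS and WT discs it differed by 0.67 ± 0.402 (adjusted p = 0.243), 1.03 ± 0.275 without NS replicate 3 (adjusted p = 0.0219) and 1.17 ± 0.133 once corrected for length (9.93e-05). Of 22 alternatives, 5 called the N transcript in N against WT and 3 in NS against WT. The length correction uses the exon length of the whole gene, although UAS Nicd encodes only the intracellular part. Against S, the N transcript of NS differed by 1.20 ± 0.406 (adjusted p = 0.15), or by 1.57 ± 0.275 without NS replicate 3 (0.00967). NS and S replicates of the same number deviated together. Both replicates 3 were low in long genes, so a pairing of the libraries cannot be told apart from that trend. Between libraries of the same number the N and the Dl transcript were higher in NS, for each of the 3 numbers. In S alone the N transcript stood at −0.54 ± 0.401 from WT (adjusted p = 0.344; 95% interval −1.42 to 0.35), which the length correction moved to −0.23 ± 0.132.

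**Figure D2:**
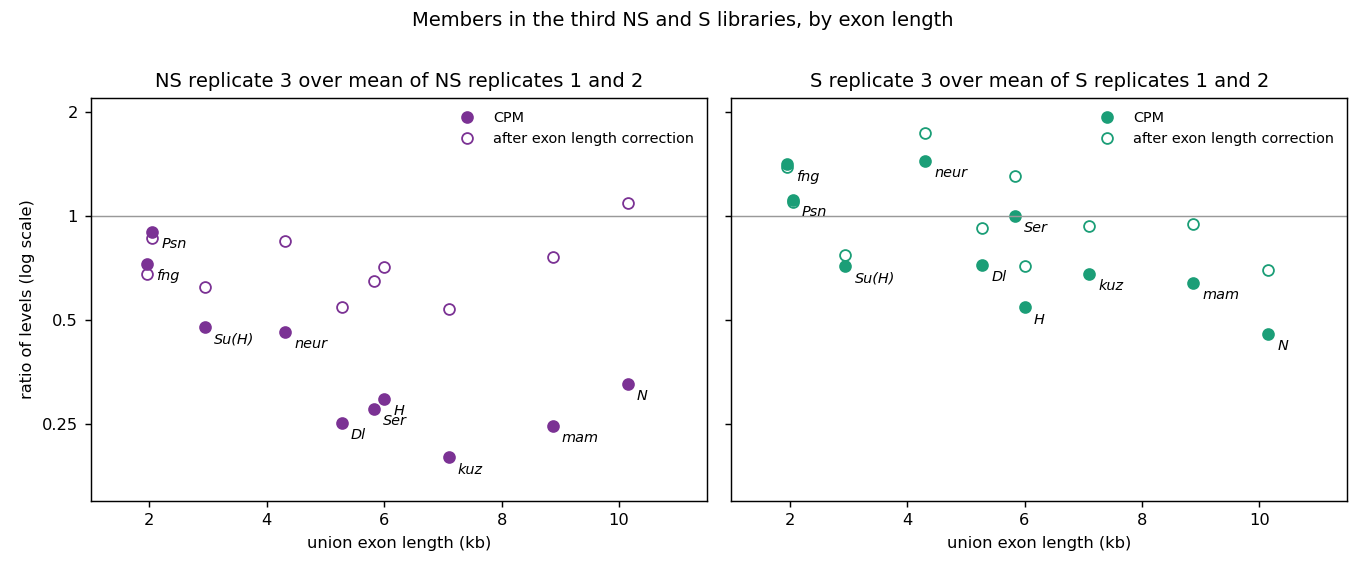
Ratio of NS replicate 3 (left) and S replicate 3 (right) to the mean of replicates 1 and 2 of the same group for each member, on a log scale, against union exon length in kb. Filled points are CPM and open points are levels after the exon length correction; N in NS replicate 3 is at 0.328 before and 1.09 after it.

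NS replicate 3 was low in all 10 members, and more so in the long ones. Psn and fng, the shortest, stood in NS replicate 3 at 0.903 and 0.728 of the mean of NS replicates 1 and 2, whereas kuz, mam, Dl, Ser, H and N, all over 5 kb, stood at 0.200 to 0.328. After the length correction N stood at 1461, 1288 and 1502 CPM in NS, 1729.7, 1723 and 1626 in N, 582, 612 and 416 in S, and 593, 671 and 624 in WT. On that scale NS replicate 3 was the highest NS library for N and far above WT. The correction used the exon length of the whole N gene. Its fit to reads of the shorter transgene, which are part of the N row in NS and N, was not tested. For the other members NS replicate 3 stayed below the mean of NS replicates 1 and 2, at 0.540 (kuz), 0.547 (Dl), 0.624 (Su(H)) and 0.651 (Ser) of it, and up to 0.869 (Psn).

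Ratios between members of like exon length within a library, chosen after the values were seen, do not use the correction. The ratio of N to mam, genes of 10150 and 8869 exon bases, was 15.5, 12.7 and 18.6 in NS, 20.9, 22.3 and 20.96 in N, 5.97, 6.85 and 4.51 in S, and 4.76, 5.30 and 5.36 in WT. NS replicate 3 thus had a raised N to mam ratio like the other NS libraries, and WT replicates 2 and 3 had a ratio close to that of WT replicate 1. In NS and N the N count includes reads of a transgene of the intracellular part alone, so the lengths are alike only for the gene itself. How far this entered the ratio of NS replicate 3 was not tested. The ratio was 3.00-fold higher in NS than in WT, 4.16-fold higher in N than in WT and 2.71-fold higher in NS than in S, with no overlap of the libraries in any of the 3 comparisons. The mam transcript itself was below WT in every NS, N and S library, and this enters the ratio. The two-sided exact permutation test gave p = 0.1 for each of these, the smallest that 3 against 3 libraries allow. Between S and WT the ratio differed 1.11-fold with overlap (exact permutation p = 0.5). In NS the ratio was at 0.722 of that in N, again with no overlap (exact permutation p = 0.1).

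**Figure D3:**
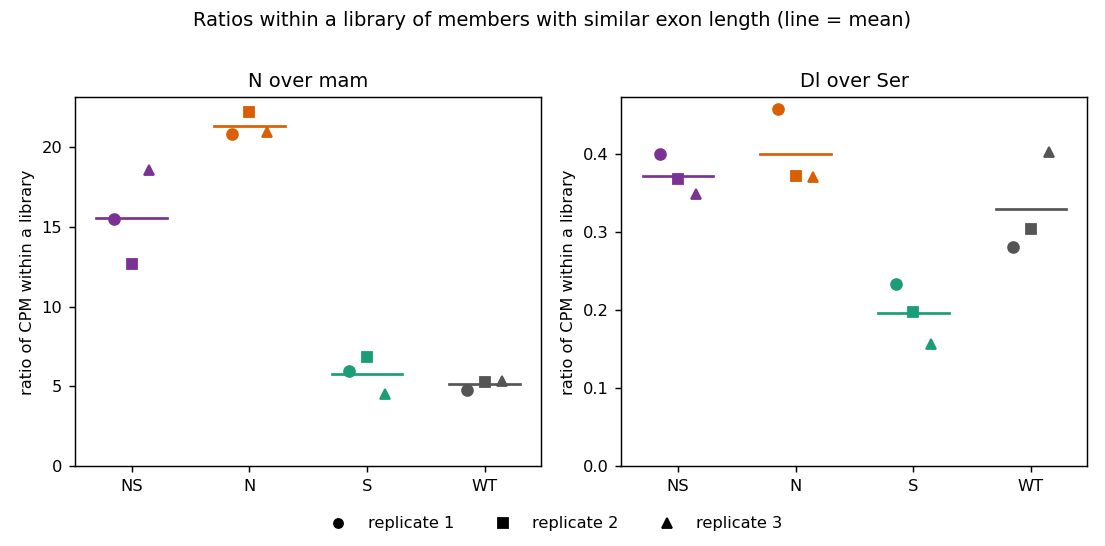
Ratio of CPM of N to mam (left) and of Dl to Ser (right) within each library, by group, with a symbol per replicate and a line at the group mean. The N to mam ratio separates NS and N from S and WT, with NS below N, and the Dl to Ser ratio separates S from the other 3 groups.

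Both ligand genes stood above WT in all 3 N libraries and in NS replicates 1 and 2. Dl stood at 270.1, 267 and 67.7 CPM in NS, 361, 273 and 316 in N, 89.2, 71.8 and 58.4 in S, and 117, 144 and 150.3 in WT. Every N library was above every WT library and every S library below every WT library, while NS split, with replicates 1 and 2 between WT and N, just below the lowest N library, and replicate 3 within the range of S. The N to WT difference in Dl was 1.21 ± 0.413 (2.31-fold, edgeR adjusted p = 0.168) over all libraries, and Dl rose in N without NS replicate 3 (1.22 ± 0.160, adjusted p = 0.00187) and after correction for length (1.19 ± 0.203, 0.0055). The S to WT difference was −0.91 ± 0.411 (1.87-fold lower, adjusted p = 0.132), and Dl fell in S without NS replicate 3 (−0.91 ± 0.160, 0.00175) and after correction for length (−0.66 ± 0.201, 0.0257). Dl gave the widest gap of the 10 genes between NS and S, at 1.46 ± 0.416 (2.76-fold, adjusted p = 0.0912), or 1.88 ± 0.175 without NS replicate 3 (3.67-fold, 0.000249). From WT it differed by 0.56 ± 0.409 in NS (adjusted p = 0.332), or 0.97 ± 0.174 without NS replicate 3 (0.00333). Against WT, Dl was called in 3 of 22 alternatives for NS, 5 for N and 4 for S.

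Ser stood at 676, 726 and 195 CPM in NS, 791, 736 and 854 in N, 382, 364 and 374 in S, and 416, 473 and 374 in WT. N lay above WT without overlap, S and WT overlapped, and NS replicate 3 was again below all WT libraries. The N to WT difference in Ser was 0.91 ± 0.370 (1.88-fold, edgeR adjusted p = 0.25), and Ser rose without NS replicate 3 (0.92 ± 0.0982, adjusted p = 0.000715) and after correction for length (0.90 ± 0.165, 0.00764). In NS it stood at 0.34 ± 0.368 from WT (adjusted p = 0.517), 0.73 ± 0.108 without NS replicate 3 (0.00113) and 0.65 ± 0.164 once corrected for length (0.0109). Against WT, Ser was called in 3 of 22 alternatives for NS and 4 for N. In S it stood at −0.17 ± 0.367 from WT (adjusted p = 0.749; 95% interval −0.99 to 0.64), and the length correction turned this to 0.14 ± 0.163.

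The balance of the ligand transcripts differed between the groups. The Dl to Ser ratio, between genes of 5278 and 5831 exon bases, was 0.400, 0.368 and 0.348 in NS, 0.457, 0.371 and 0.370 in N, 0.233, 0.197 and 0.156 in S, and 0.281, 0.304 and 0.401 in WT. All 3 S libraries were below all libraries of the other groups, and NS replicate 3 stood with its group. The ratio was 1.92-fold higher in NS than in S and at 0.594 of WT in S, each with an exact permutation p of 0.1, while NS and N overlapped with WT (p = 0.4 and 0.3).

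The fng transcript, which encodes the enzyme that adds N-acetylglucosamine to O-fucose on Notch, went against the receptor and ligands in NS and N, but not in S. It stood at 216, 237 and 165 CPM in NS, 242, 251 and 258 in N, 291, 253 and 385 in S, and 355, 354 and 349 in WT. WT libraries lay within a narrow band, all NS and N libraries were below it, and S overlapped with it. fng fell in NS to 1.71-fold below WT (−0.78 ± 0.177, edgeR adjusted p = 0.0107), and this held without NS replicate 3 (−0.64 ± 0.156, 0.0142) and after correction for length (−0.87 ± 0.166, 0.00258). It was called in 19 of 22 alternatives, and not with WT replicate 1 as the only WT library (adjusted p = 0.158), with NS and WT fitted alone (0.0521) or without the 3 libraries richest in fat body RNA (0.0589). The N to WT difference of −0.49 ± 0.176 did not pass (adjusted p = 0.186), nor did it without NS replicate 3 (0.0585) or with the length correction (0.0718), and it passed when N and WT were fitted alone (0.00311). In NS all 3 libraries were also below all 3 S libraries, a difference of −0.59 ± 0.176 (adjusted p = 0.106; 0.049 with the length correction).

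Of the processing genes, Psn, the catalytic subunit of the gamma-secretase complex, was slightly but evenly lower. It stood at 116, 122 and 107 CPM in NS, 127, 119 and 129.9 in N, 109, 113 and 124 in S, and 152, 146 and 137 in WT, so that every library of NS, N and S was below every WT library. Taken 1 group at a time, 21.5%, 17.2% and 23.9% of all genes lay below WT in this way in NS, N and S. The share of genes below WT in all 3 groups at once was not counted. Psn fell 1.26-fold in NS (−0.33 ± 0.109, edgeR adjusted p = 0.0479) and 1.26-fold in S (−0.33 ± 0.109, 0.0499), both just inside the threshold. Psn was called in 7 of 22 alternatives for NS and 8 of 22 for S, with adjusted p up to 0.261 in each. Both calls were lost when any library other than NS replicate 3 or S replicate 3 was left out, with edgeR adjusted p of 0.0619 to 0.163 in NS and 0.0585 to 0.17 in S. The N to WT difference in Psn was −0.21 ± 0.109 (adjusted p = 0.386).

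The metalloprotease gene kuz stood at 101, 98.2 and 19.9 CPM in NS, 143, 118 and 128 in N, 112, 108 and 74.8 in S, and 123, 142 and 128 in WT. N and WT overlapped, with a difference of −0.02 ± 0.448 (edgeR adjusted p = 0.995; 95% interval −1.01 to 0.97, and −0.05 ± 0.184 with the length correction). All NS libraries were below all N and all WT libraries. The NS to WT difference in kuz was −0.85 ± 0.452 (adjusted p = 0.192), −0.40 ± 0.157 without NS replicate 3 (0.0884) and −0.54 ± 0.185 once corrected for length (0.0457). In S the values were below WT, at −0.42 ± 0.449 (adjusted p = 0.51), and passed without NS replicate 3 (0.0328) but not with the length correction (−0.11 ± 0.184, 0.666).

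Among the nuclear genes, mam, whose protein joins the complex of Su(H) and the Notch intracellular part as co-activator, was lower in every mutant library than in any WT library. As for Psn, the share of all genes below WT in all 3 groups at once was not counted. It stood at 103, 115 and 26.9 CPM in NS, 107, 90.6 and 96.2 in N, 110.0, 88.1 and 63.7 in S, and 137, 167 and 132 in WT. None of the differences of mam from WT passed over all 12 libraries, at −0.83 ± 0.419 in NS, −0.57 ± 0.417 in N and −0.74 ± 0.418 in S (edgeR adjusted p = 0.168, 0.607 and 0.219). With the length correction mam fell in NS (−0.44 ± 0.106, adjusted p = 0.00924), N (−0.61 ± 0.106, 0.00587) and S (−0.41 ± 0.105, 0.012). Without NS replicate 3 it fell in S (adjusted p = 0.00719), and the values in NS and N did not pass (0.145 and 0.0754). Of 22 alternatives, mam was called in 2 for NS, 3 for N and 4 for S.

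Su(H), the DNA-binding protein of the pathway, stood at 24.99, 28.3 and 12.7 CPM in NS, 27.3, 28.9 and 26.7 in N, 25.6, 23.9 and 17.7 in S, and 19.9, 19.4 and 25.9 in WT. N libraries were just above WT, at 0.35 ± 0.260 (edgeR adjusted p = 0.621; 95% interval −0.23 to 0.92), and the values in NS and S were 0.02 ± 0.261 and 0.05 ± 0.260. H, which encodes the repressor partner of Su(H), stood at 94.7, 108 and 30.0 CPM in NS, 123, 107 and 123 in N, 109, 92.1 and 54.8 in S, and 102, 117 and 112 in WT. NS, N and S each overlapped with WT in H, with NS replicate 3 and S replicate 3 far below it. Its differences from WT with the length correction were −0.17 ± 0.153 in NS, 0.08 ± 0.153 in N and −0.11 ± 0.153 in S (edgeR adjusted p = 0.418, 0.805 and 0.596). Neither gene was called in any of the 22 alternatives for the 3 comparisons with WT. The 95% intervals of the 3 differences of Su(H) from WT reached from −0.56 to 0.92.

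The ubiquitin ligase gene neur acts on the ligands in the sending cell and is strongly expressed in sensory organ precursors. Without NS replicate 3 or with the length correction, it was the only member with all NS libraries above all N libraries. The NS to N difference with the length correction did not pass (0.66 ± 0.209, edgeR adjusted p = 0.0548). The neur transcript stood at 60.8, 57.4 and 27.4 CPM in NS, 39.9, 33.6 and 38.0 in N, 36.7, 29.5 and 47.8 in S, and 38.4, 42.6 and 29.0 in WT. NS replicates 1 and 2 were above every other library and NS replicate 3 below every other library. The NS to WT difference in neur was 0.40 ± 0.285 (edgeR adjusted p = 0.315), and neur rose in NS without NS replicate 3 (0.68 ± 0.203, 0.0334) and after correction for length (0.66 ± 0.209, 0.0316). This difference was called in 3 of 22 alternatives. The corrected levels were 57.4, 53.9 and 47.3 CPM in NS, against 35.9, 37.3 and 27.0 in WT. The list of sensory organ precursors held 7 genes (sens, ase, ac, sc, l(1)sc, phyl and pros). Of 6 tested, none was higher and 2 were lower in NS than in WT, beside 24.3% of all genes called and 10.4% called lower. These were sc at −1.30 ± 0.225 (edgeR adjusted p = 0.00256) and phyl at −3.15 ± 0.824 (0.0199). The phyl levels were low, at 0.106, 0.197 and 0.459 CPM in NS and 2.13, 2.95 and 1.82 in WT. The summed level of the 7 genes was 23.1 to 28.5 CPM in NS, 36.3 to 43.7 in N, 16.8 to 75.3 in S and 49.3 to 61.1 in WT, with ase at 0 in all NS libraries. The part of these cells in the neur level was not tested.

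Counted over the members, few passed over all 12 libraries. In NS against WT, 0 of 10 were higher and 2 lower, fng and Psn, while 24.3% of all tested genes were called and 10.4% were called lower. In N against WT 0 of 10 were called by edgeR, beside 3.08% of all genes. At an unadjusted p under 0.05 there were 4 (N, Dl, Ser and fng), beside 1528 of all 9444 genes. DESeq2 called 2 there (N and Dl), beside 8.73% of all genes. In S against WT 1 of 10 was called, Psn, which was lower, beside 23.1% of all genes called and 10.6% called lower. In NS against S 0 of 10 were called by edgeR, beside 3.70% of all genes. At an unadjusted p under 0.05 there were 3 (N, Dl and fng), beside 1589 of all 9444 genes. DESeq2 called these 3, beside 9.37% of all genes. In NS against N 0 of 10 were called by edgeR or DESeq2, beside 7.80% and 17.6% of all genes. By edgeR 0 had an unadjusted p under 0.05, beside 2608 of all 9444 genes. The first 3 comparisons share the WT libraries. The median log2 difference of the members was −0.16 in NS, 0.06 in N and −0.35 in S against WT, beside 0.03, 0.01 and 0.04 over all genes tested. The length correction moved the medians of NS and S to −0.04 and −0.17, and that of NS turned to 0.08 without NS replicate 3.

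Without NS replicate 3, N, Dl, Ser and neur were higher and fng and Psn lower in NS than in WT, where 13.1% of all genes were called higher and 12.2% lower. N, Dl and Ser were then higher in N than in WT, where 3.55% of all genes were called higher. In S against WT, Dl, mam, kuz and Psn were lower, beside 20.6% of all genes, and in NS against S, N, Dl and Ser were higher, beside 3.79%. With the length correction 8 of 10 were called in NS against WT. The 4 higher were N, Dl, Ser and neur, beside 16.2% of all genes, and the 4 lower were fng, mam, kuz and Psn, beside 16.7%. In N against WT, N, Dl and Ser were then higher, beside 3.16%, and mam lower, beside 5.29%. In S against WT the corrected fit called Dl, mam and Psn lower, beside 18.8%, and in NS against S it called N and Dl higher, beside 3.30%, and fng lower, beside 4.93%.

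Without a model, the libraries of the groups were compared for overlap. In NS against WT, fng, mam, kuz and Psn lay lower with no overlap, beside 21.5% of all genes. In N against WT, 4 of 10 lay higher with no overlap (N, Dl, Ser and Su(H)), beside 16.9%, and 3 lay lower (fng, mam and Psn), beside 17.2%. In S against WT, Dl, mam, kuz and Psn lay lower, beside 23.9%. In NS against N, 5 of 10 lay lower (N, Dl, Ser, fng and kuz), beside 21.0%, and in NS against S only fng did, beside 9.11%. These counts for NS depended on NS replicate 3. Without it, N, Dl, Ser and neur lay higher in NS than in WT, beside 29.3%, and fng, mam, kuz and Psn lower, beside 27.8%. With the length correction the same 8 genes separated in the same directions, beside 22.3% higher and 24.6% lower. In NS against N the same 5 lay lower without it, beside 27.4%, and neur higher, beside 28.0%, whereas the length correction left N, fng and kuz lower, beside 21.6%, and neur higher, beside 21.5%. In NS against S, N, Dl, Ser and neur lay higher without it, beside 21.4%, and fng lower, beside 21.3%. The length correction left N and Dl higher there, beside 11.6%, and fng and kuz lower, beside 13.3%.

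**Figure D4:**
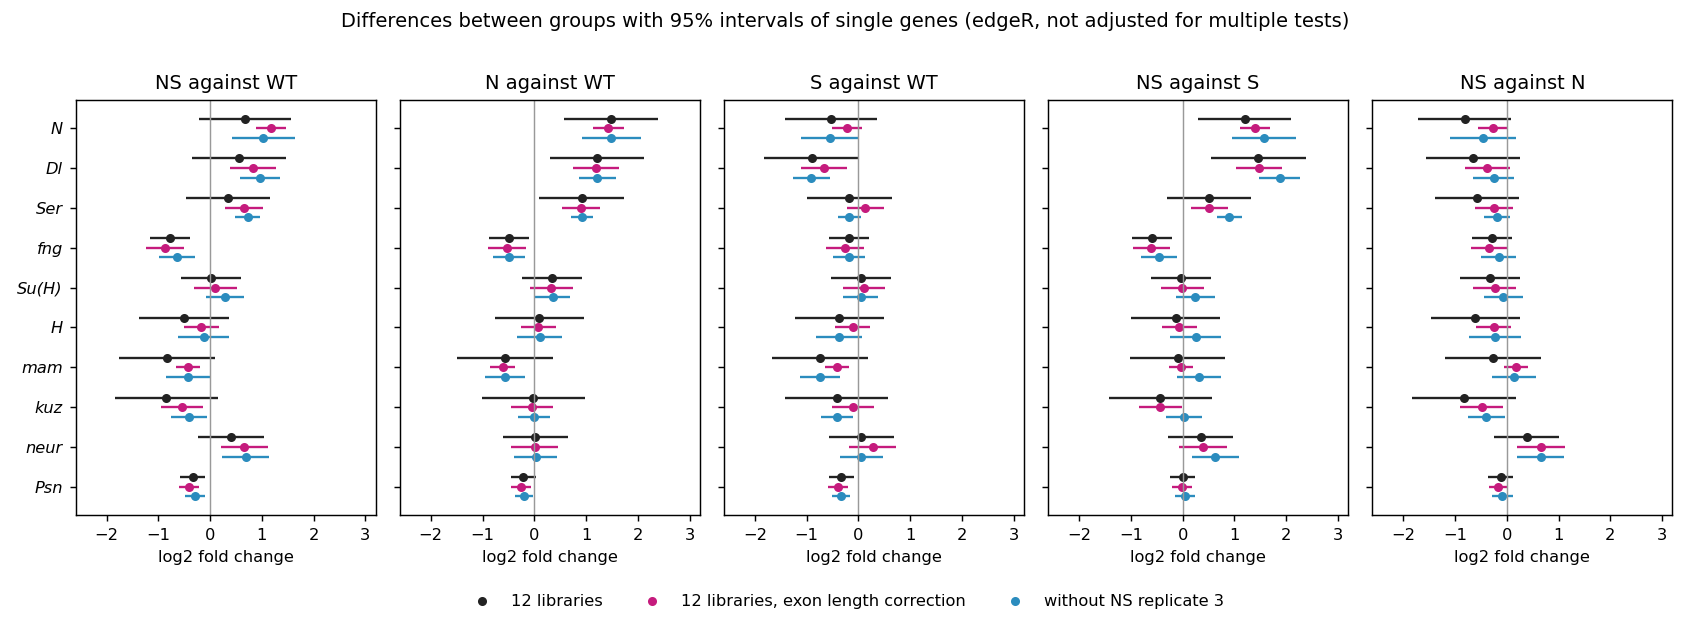
Log2 fold change of each member in 5 comparisons with its 95% interval, from all 12 libraries, from all 12 with the exon length correction, and without NS replicate 3. In N against WT the points for N, Dl and Ser lie between 0.90 and 1.49 in all 3 fits and differ mainly in the width of their intervals.

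Whether the N and S changes added up in NS was asked with the interaction term, in which the differing background of S enters too. No member was called by edgeR or DESeq2, beside 1.28% and 4.97% of all genes. None had an unadjusted p under 0.05, beside 1248 of all 9444 genes by edgeR. The terms for N, Dl and Ser were −0.28 ± 0.566, 0.25 ± 0.577 and −0.40 ± 0.520 (edgeR adjusted p = 0.876, 0.892 and 0.801), with 95% intervals from −1.55 to 1.53 over the 3 genes, so that departures of more than 2-fold from additivity lie within them. With NS and S replicates 3 both left out, the terms for mam (0.72, adjusted p = 0.0363) and neur (0.83, 0.0445) were called higher by edgeR, beside 6.23% of all genes.

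The likeness of other genes to N, Dl and Ser was measured as the root mean square difference of log2 CPM over the 12 libraries, each gene centred on its own mean. Of the other tested genes, the one most like N was Dl, at 0.244, and Dl in turn was most like N, where the median over all genes was 1.02 and 1.03. The remainder of the first 3 were magu (0.279) and fz3 (0.398) for N, and fz3 (0.380) and vg (0.393) for Dl. The gene most like Ser was sd, which encodes the DNA-binding partner of Vestigial, at 0.0931, followed by rn (0.190) and psq (0.236), where the median was 0.768. Over the 12 libraries Ser ranked 10th for N and 11th for Dl, and N and Dl ranked lower for Ser, at 1237 and 797. Without NS replicate 3, over 11 libraries, Dl was again first for N (0.242), N for Dl, and sd for Ser (0.0972), but the places behind them changed. The next places were then held by CR44366 (0.280) and magu (0.291) for N, CG31262 and CR44366 (both 0.255) for Dl, and Ama (0.192) and rn (0.198) for Ser. Ser then ranked 18th for N and 22nd for Dl, and N and Dl ranked at 2570 and 1877 for Ser. These are descriptions over libraries that share groups and the length trend, and the N profile includes the transgene.

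**Figure D5:**
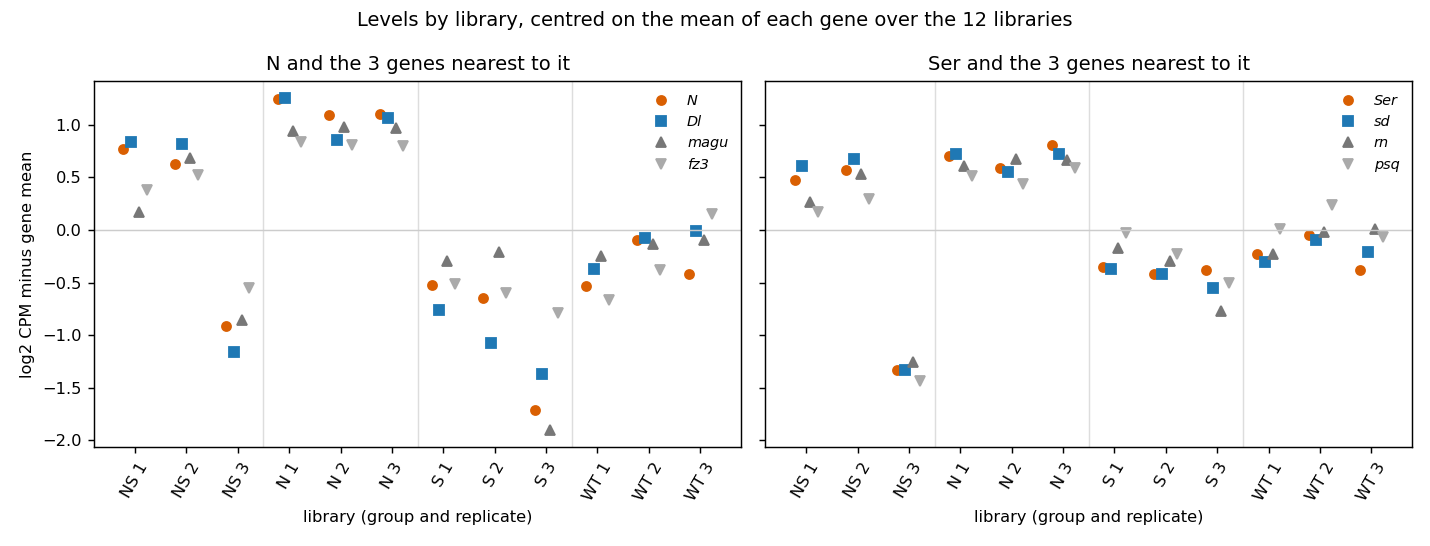
Log2 CPM of N and its 3 nearest genes (left) and of Ser and its 3 nearest genes (right) in each of the 12 libraries, each gene centred on its own mean. NS replicate 3 is the lowest NS library for every gene plotted, and sd lies closest to Ser, at a root mean square difference of 0.0931.

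Other genes of the pathway were followed from lists, whose counts stand beside 24.3%, 3.08% and 23.1% of all genes called in NS, N and S against WT. DESeq2 called 32.6%, 8.73% and 33.1% of all genes there. With the length correction, 16.2% were called higher and 16.7% lower in NS, and 19.3% and 18.8% in S. Of 10 genes of receptor maturation and cleavage, among them the gamma-secretase genes Nct, aph-1 and pen-2, edgeR called 0 in NS and 0 in N against WT (2 and 0 at an unadjusted p under 0.05, 2 and 0 by DESeq2), and 1 was lower in S, rumi, the O-glucosyltransferase gene of Notch, at −0.57 ± 0.114 (edgeR adjusted p = 0.00564). rumi was also the gene of this list called in NS against S, at 0.48 ± 0.114 (0.0433, and in 5 of 22 alternatives), beside 3.70% of all genes. The length correction called 4 of this list lower in NS and 2 in S, beside 16.7% and 18.8% of all genes called lower. Without NS replicate 3 there were 1 higher and 3 lower in S, beside 23.45% and 20.6% of all genes. Of 11 nuclear cofactor genes, such as gro, CtBP and nej, edgeR called 0 in each of the 6 tests over all libraries. At an unadjusted p under 0.05 there were 2 in NS, 1 in N and 1 in S against WT and 0 in the other tests, and DESeq2 called 1 in NS, 0 in N and 1 in S. With the length correction 1 was higher and 2 lower in NS, and 3 were lower in S. In NS against N it called 1 higher and 1 lower, beside 8.24% and 7.89% of all genes. Without NS replicate 3, 2 were lower in S, 1 was lower in N and 1 was higher in NS against N, where 20.6%, 4.48% and 5.005% of all genes were called in that direction. Of 6 tested genes of ligand endocytosis, 1 was lower in NS, 0 were called in N by edgeR (1 at an unadjusted p under 0.05, 1 by DESeq2), and 1 was higher and 1 lower in S. The Bearded family gene Tom, an inhibitor of Neuralized, fell in NS (−0.60 ± 0.157, edgeR adjusted p = 0.0203) and S (−0.63 ± 0.157, 0.0162), and its relative Brd rose in S (2.15 ± 0.426, 0.00531), where it stood at 15.98, 14.5 and 5.02 CPM, against 2.44, 2.56 and 3.00 CPM in WT. Of 7 tested genes of receptor trafficking, 1 was higher and 1 lower in NS, 0 were called in N by edgeR (0 at an unadjusted p under 0.05, 0 by DESeq2), and 2 were higher in S. shrb, which encodes an ESCRT-III protein of endosomal sorting, rose in NS (0.95 ± 0.214, edgeR adjusted p = 0.0105) and S (0.97 ± 0.214, 0.00934), and dx, a Notch-binding ubiquitin ligase gene, fell in NS (−1.02 ± 0.332, 0.0474, and in 9 of 22 alternatives). Without NS replicate 3, 3 trafficking genes were higher and 1 lower in NS, beside 13.1% and 12.2% of all genes. In S, 2 were then higher and 2 lower, beside 23.45% and 20.6%.

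The targets of the pathway were next. Of 11 tested genes of the E(spl) complex, the repressor and Bearded-like genes that Notch switches on directly, 3 were higher and 2 lower in NS against WT, 2 higher and 0 lower in N, and 1 higher and 6 lower in S, beside 24.3%, 3.08% and 23.1% of all genes called. Against S, 5 were higher and 0 lower in NS, beside 3.70%. Their median log2 difference was −1.58 in S against WT and 1.97 in NS against S. The medians of NS and N against WT, 0.27 and 0.16, did not hold their sign. That of NS was −0.19 with the length correction and −0.06 without NS replicate 3. WT replicate 3 was the lowest WT library for 11 of 11 genes, and without it the medians were −0.13 in NS, −0.26 in N and −1.98 in S. The counts were then 3 higher and 3 lower in NS, 2 higher and 1 lower in N, and 0 higher and 8 lower in S. These stood beside 20.1%, 3.34% and 22.2% of all genes called. E(spl)mbeta-HLH, for example, stood at 281, 288 and 506 CPM in NS, 233, 216 and 292 in N, 71.4, 68.6 and 158 in S, and 393, 392 and 104 in WT. E(spl)m8-HLH stood at 45.4, 47.1 and 65.6 CPM in NS, 41.2, 39.5 and 63.3 in N, 8.33, 7.62 and 8.05 in S, and 15.5, 17.6 and 5.66 in WT, and it rose in NS (2.03 ± 0.364, edgeR adjusted p = 0.00319) and N (1.90 ± 0.362, 0.0203) against WT. NS replicate 3, low in the long core genes, was the highest NS library for this target. The part of that library's trend with exon length in this level was not tested. E(spl)mgamma-HLH rose in NS against WT (2.46 ± 0.517, edgeR adjusted p = 0.00741) and against S (2.66 ± 0.522, 0.0182). E(spl)mdelta-HLH fell in NS (−1.16 ± 0.271, 0.0124) and in S (−3.45 ± 0.298, 3.86e-05), and its interaction term of 1.90 ± 0.387 was called (0.0446, and in 7 of 21 alternatives) but not with the length correction (0.0536). Of 5 other targets tested, 3 were higher in NS and in N against WT, wg, vg and dpn, with dpn, a repressor gene of the Hes family, at 1.29 ± 0.349 in NS and 1.61 ± 0.351 in N (edgeR adjusted p = 0.0227 and 0.038). Among the alternatives, vg kept its call in NS in 4 of 22 and dpn its call in N in 11 of 22. dpn and vg fell in S, at −1.44 ± 0.351 and −1.33 ± 0.253 (edgeR adjusted p = 0.0152 and 0.00416), and peb fell in NS and S. The remaining target, ct, was not called in NS or N against WT over all libraries, but its levels lay on opposite sides of WT. It stood at 22.3, 18.7 and 2.72 CPM in NS, 92.9, 42.1 and 78.3 in N, and 24.6, 33.7 and 23.9 in WT. Every NS library was thus below every WT library in ct, NS replicate 1 only just, and every N library above. The list was written with earlier results of these data known, so its directions are not independent evidence. Of 4 genes of the dorsal compartment and its boundary, among them ap, the selector gene of dorsal cells, trn was lower in NS (−0.68 ± 0.210, edgeR adjusted p = 0.0391) and S (−0.70 ± 0.210, 0.0369). These calls held in 8 and 11 of 22 alternatives, and that of NS was lost without NS replicate 3 (−0.50, adjusted p = 0.0553). ap was not called in any of the 6 tests over all libraries, and it was higher in N than in WT without NS replicate 3 (0.39, adjusted p = 0.0276). Bx, the gene of an LIM-only protein that limits Apterous, was lower in NS than in N (−1.12 ± 0.272, 0.0318), and without NS replicate 3 also higher in N than in WT (0.66, adjusted p = 0.0189).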

How the data were processed

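Polyadenylated RNA was sequenced with a stranded mRNA kit from 12 pools of 60 wing discs, per the labels' protocols. The authors deposited whole-number read counts per gene symbol, not normalized. Per the submitters' processing notes, TopHat2 2.0.9, Bowtie2 2.1.0, HTSeq, edgeR and DESeq were used with build dm6, with no role given. Neither the annotation release nor the strand setting of the counting was stated in these sources. Without strand, reads of a gene and of an antisense partner cannot be told apart. The table has 2 blank lines, which were left out. Of 17716 symbols, 13320 matched a current symbol of the Ensembl BDGP6 annotation, 4257 a synonym and 139 neither. BobA, spdo, Hey, Myc and l(1)sc of the lists were found but not tested, and E(spl)m1-BFM was not found.

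Counts were tested with edgeR 4.0.16 (R 4.3.3) after filterByExpr and TMM scaling, with robust dispersion, 1 coefficient per group over all 12 libraries and 8 residual degrees of freedom. The SE is the log2 change divided by the square root of F. Log2 CPM used a prior count of 2. The length correction adds to the offsets the lowess trend (span 0.3) of each library against union exon length. The code was tested on simulated data. Members and lists were chosen with earlier results of these data known. Named genes were the members, scrib, up to 4 genes per list and comparison with the smallest adjusted p, and the 3 genes most like N, Dl and Ser. Alternatives were DESeq2 1.42.0, RLE factors, library totals, no filter, a replicate block, each library left out, WT replicate 1 alone, NS and S replicates 3 left out, the length correction, the compared groups alone and, added after seeing the data, the 3 libraries with most fat body RNA left out and the ratios within a library. Between NS and S alone, deviations from group means correlated positively for every replicate number (r = 0.457, 0.493 and 0.327). Replicates 3 of both groups were low in long genes, so a pairing of the libraries cannot be told apart from that trend.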

Additional observations from a re-analysis of the deposited data

How the results depend on the processing

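The number of members called depended on NS replicate 3 and on the model. Beside each count stands the percentage of all tested genes called. In N against WT, 0 (3.08%) were called in the report's fit, 2 with DESeq2 (8.73%), 4 with the length correction (8.45%), 5 with the compared groups alone (14.9%) and 6 with NS and S replicates 3 left out (15.3%). In S against WT, 1 (23.1%) became 3 with the length correction (38.1%) or the compared groups alone (31.2%), 5 with both replicates 3 left out (47.5%), and 0 with no filter (11.7%), the replicate block (21.1%), WT replicate 1 alone (5.99%) or without the 3 fat-body-rich libraries (11.9%). In NS against WT, 2 (24.3%) became 8 with the length correction (32.9%) or both replicates 3 left out (33.7%), 1 with no filter (12.5%) or the replicate block (22.3%), and 0 with WT replicate 1 alone (5.62%), the compared groups alone (10.97%) or without the fat-body-rich libraries (14.95%). In NS against S, 0 (3.70%) became 3 with DESeq2 (9.37%) or the length correction (8.24%) and 4 with both replicates 3 left out (13.2%); in NS against N, 3 (17.0%), and for the interaction, 2 (9.32%), were called with these left out. The replicate block changed no member's call in NS against S, the groups whose replicates of the same number deviated together (N at 1.17, adjusted p = 0.119, and Dl at 1.39, 0.131). Leaving out each library in turn gave 0 to 3 (N against WT), 0 to 4 (S), 1 to 6 (NS), 0 to 3 (NS against S) and 0 for the other tests; the highest came without NS replicate 3 (8.02%, 44.0%, 25.2% and 7.28% in the 4 comparisons). The cause was not tested.

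Values near 0 changed sign. In N against WT, kuz was 0.0051 with no filter, 0.095 with WT replicate 1 alone and 0.048 without the fat-body-rich libraries, and neur −0.026 with WT replicate 1 alone. In S against WT, Ser was 0.14 with the length correction, Su(H) −0.074 with library totals and −0.058 without the fat-body-rich libraries, and neur −0.057 with library totals and −0.16 with both replicates 3 left out. In NS against WT, Su(H) was −0.016 with DESeq2 and with RLE, −0.12 with library totals, −0.039 with the replicate block and −0.084 without the fat-body-rich libraries. In NS against N, mam was 0.16 with both replicates 3 left out and 0.18 with the length correction. In NS against S, with both replicates 3 left out, Su(H), H, mam and Psn were 0.11, 0.015, 0.14 and 0.10, and Psn was 0.000283 with RLE and 0.000335 with the compared groups alone. In the interaction, Dl was −0.00094 with WT replicate 1 alone, and Ser and fng were 0.012 and 0.25 with both replicates 3 left out. With single libraries left out, the ranges that crossed 0 were −0.090 to 0.050 (kuz) and −0.12 to 0.15 (neur) in N against WT; −0.055 to 0.20 (Su(H)) and −0.16 to 0.21 (neur) in S; −0.19 to 0.29 (Su(H)) in NS; −0.59 to 0.14 (mam) in NS against N; −0.24 to 0.25 (Su(H)), −0.44 to 0.25 (H), −0.41 to 0.32 (mam), −0.74 to 0.019 (kuz) and −0.037 to 0.070 (Psn) in NS against S; and −0.56 to 0.081 (N), −0.022 to 0.66 (Dl), −0.22 to 0.10 (fng), −0.54 to 0.15 (H) and −0.72 to 0.031 (kuz) in the interaction.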
